A study of Rattus norvegicus with 18 samples.

Results

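The tallest H3K4me3 peaks of moderate width and with a neighbour at moderate distance were examined in untreated Schwann cells, the glial cells that ensheathe the axons of peripheral nerves. A peak was taken when it lay on chromosomes 1 to 20, was 700 to 2499 bp wide, had its nearest other peak more than 2000 and at most 200000 bp away, and held a mean of 50 or more RCPM (reads scaled to width and library size) over the 3 control libraries. RCPM is the read count of a peak divided by its width in kb and by the library's reads in all peaks, times 1000000, so that levels of peaks of different width can be set side by side. The rule gave 1632 tall compact peaks of 16364 merged peaks (9.97%), which covered 10.02% of the total peak length. The same limits of chromosome, width and gap held for 9333 peaks, and the 7701 of them under 50 RCPM are called lower compact peaks below. A further 979 peaks reached 50 RCPM outside these limits, of which 605 were 2500 bp or wider.

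H3K4me3 was profiled by ChIP-seq in primary Schwann cells from the sciatic nerves of 3-month-old Fisher rats, expanded with neuregulin and forskolin and then kept without them for the experiment. There were 3 libraries of untreated control cells, 3 of cells collected 30 min after washout of 8-CPT-cAMP, a cAMP analog that crosses the membrane, and 3 of cells collected 3 h 30 min after washout, each with a genomic input library. The analog had been on the cells for 30 min, at 100 μM in 1 field of the sample labels and at 50 μM in another. No label says that replicates came from separate animals or cultures, so p-values measure the spread between these libraries, which may be technical. Reads in peaks made up 79.7% to 83.0% of aligned reads in the control libraries, 75.1% to 79.1% at 30 min and 79.1% to 88.5% at 3 h 30 min. The deposited counts name no genes, so the cells were not checked against Schwann cell markers.

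H3K4me3 is trimethylation of lysine 4 of histone H3 and is found mainly over active or poised promoters, most of all those rich in CpG. It is written by SET1 and MLL methyltransferase complexes and removed by demethylases of the KDM5 family, which need Fe(II) and oxygen. In ChIP-seq the height of a peak reads how densely the mark is present over its length, and its width reads how far the mark spreads.

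Tall compact peaks were named by their peak number, except for Ptges3 and Cd99, which could be tied to a gene. Ptges3 encodes p23, a co-chaperone of Hsp90 that also acts as a prostaglandin E synthase, and Cd99 encodes a cell surface glycoprotein of adhesion and leukocyte migration. The study lists both genes for a decrease at 30 min with their mean level in each condition, and a peak was given a gene where its own means, after 1 scale factor per condition, came closest to that pair. For Ptges3 this was Peak_6649 at chr7:2478499-2480868 (Rnor_6.0), at a distance of 0.00329%, and the next closest peak lay 868 times farther away. For Cd99 it was Peak_5176 at chr20:56195565-56197363 (Rnor_6.0), at a distance of 0.00700%, and the next closest lay 218 times farther away. A second listed gene, AABR07045680.1, had the same means and matched the same peak equally well, so the match did not choose between it and Cd99. The promoters of Ptges3 and Cd99 are shown because their peaks are the members that could be tied to a listed gene, and both had a dip at 30 min. They come from RefSeq on GRCr8, at chr7:1075059-1075358 on the plus strand for Ptges3 and chr20:56005039-56005338 on the minus strand for Cd99, from 250 bases before to 50 after the gene's start. Positions on the 2 builds were not compared. Capitals mark the GC box core (GGGCGG or CCGCCC) and the cAMP response element half-site (TGACG or CGTCA), searched on both strands.
Ptges3: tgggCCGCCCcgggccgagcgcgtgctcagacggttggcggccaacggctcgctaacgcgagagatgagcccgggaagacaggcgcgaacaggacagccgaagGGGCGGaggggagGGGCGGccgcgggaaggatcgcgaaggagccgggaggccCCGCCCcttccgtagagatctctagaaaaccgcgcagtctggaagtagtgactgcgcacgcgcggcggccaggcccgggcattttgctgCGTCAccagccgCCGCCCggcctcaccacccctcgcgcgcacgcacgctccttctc
Cd99: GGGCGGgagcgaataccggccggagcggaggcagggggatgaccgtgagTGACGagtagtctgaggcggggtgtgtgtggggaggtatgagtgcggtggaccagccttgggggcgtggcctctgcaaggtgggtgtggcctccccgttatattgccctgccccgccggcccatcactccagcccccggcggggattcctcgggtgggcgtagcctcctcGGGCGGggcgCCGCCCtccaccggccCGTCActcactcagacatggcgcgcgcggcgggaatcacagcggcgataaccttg
The Ptges3 promoter held 5 GC box cores and 1 half-site, and the Cd99 promoter held 3 and 2. Of 33469 rat promoters of this length, 33.1% held a GC box core and 21.2% a half-site. G+C made up 71.7% of the Ptges3 and 70.3% of the Cd99 window, with 41 and 30 CpG, against a median of 51.7% and 7 CpG over all promoters. Neither window held CCAAT or ATTGG, found in 37.5% of all promoters, nor TATAAA or TTTATA, found in 14.2%. No marked letters overlapped between motifs, and the motifs were chosen after the data were seen.

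The control level chose the peaks and is given as a description. It ran from 50.0 to 86.7 RCPM with a median of 56.5, against a median of 29.2 RCPM in the lower compact peaks and 31.6 RCPM over all peaks. Most of the peaks were close to the limit, with 1078 under 60 RCPM, 438 from 60 to under 70 and 116 at 70 or more, of which 14 reached 80. The tallest was Peak_14848 at chr1:257516786-257518241, 1456 bp wide, with 87.9, 84.6 and 87.5 RCPM in the control libraries, and it ranked 7th of all peaks, the highest of which had 94.3 RCPM. It was followed by Peak_1839 at chr6:1621459-1622857 with 86.7, 86.1 and 86.4 RCPM. Peak_7960 at chr10:29289005-29290397 had 87.0, 86.3 and 85.0 RCPM. These 3 were all between 1393 and 1456 bp wide, whereas the next, Peak_819 at chr2:157315638-157317866 and Peak_12236 at chr1:183891910-183894407, were 2229 and 2498 bp wide and had means of 84.6 ± 1.07 and 84.1 ± 1.38 RCPM (SD, n = 3).

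At the limit, members and the peaks left out could hardly be told apart. The lowest members, Peak_6532, Peak_1916 and Peak_4811, had 48.7 to 51.4 RCPM in single control libraries. The highest compact peaks left out, Peak_6353, Peak_8009 and Peak_3412, had 49.4 to 50.6 RCPM. All 6 of these peaks had a mean of 50.0 RCPM after rounding.

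Tall compact peaks were wider than the lower compact peaks, with a median of 1744.5 against 1447 bp, and lay farther from their neighbour, with a median gap of 37198 against 23791 bp. They made up 6.53% of compact peaks of 700 to 1199 bp, 17.2% of those of 1200 to 1599 bp, 22.9% of those of 1600 to 1999 bp and 27.2% of those of 2000 to 2499 bp. Over all compact peaks, width and control level had a Spearman's rho of 0.436, whereas within the tall compact peaks it was 0.0852. These are correlations over peaks, which share libraries and are not independent replicates, and the width limit and level limit both shaped them. The plot of level against width shows that the low left of the field is dense and that peaks past the limit are found at every width.

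**Figure D1:**
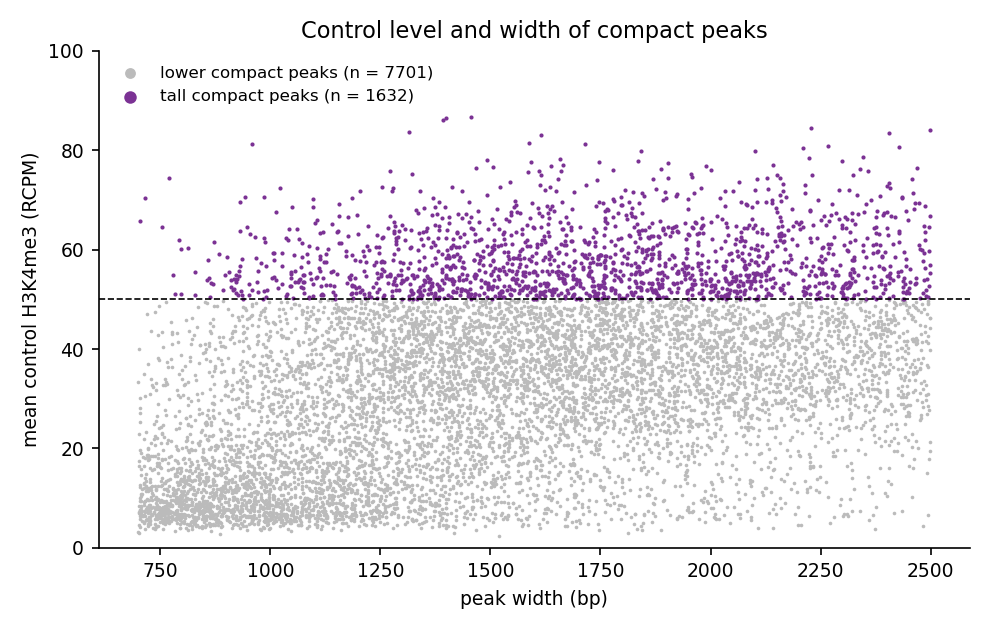
Mean control H3K4me3 (RCPM) against peak width (bp) for the 9333 compact peaks, with the 1632 tall compact peaks in purple, the 7701 lower compact peaks in grey and a dashed line at 50 RCPM. Tall compact peaks occur from 703 to 2499 bp, and most lie close to the line.

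The narrowest member, Peak_6493 at chr6:75864635-75865337 (703 bp), had 65.8 ± 1.38 RCPM in control cells (SD, n = 3), above the widest, Peak_3023 at chr10:45577640-45580138 (2499 bp), with 57.2, 56.6 and 57.0 RCPM in the control libraries. By gap, tall compact peaks were 9.85% of the compact peaks with a neighbour within 10000 bp, 17.8% at 10000 to 50000 bp and 23.4% beyond 50000 bp. By chromosome, their share ran from 10.9% on chromosome 12 (38 of 349) to 22.7% on chromosome 2 (137 of 603), and chromosome 1 held the most, 163. Their nearest neighbour was mostly not tall itself. It had a median control level of 33.8 RCPM, close to the 32.6 RCPM of the neighbours of lower compact peaks, and was itself a member for 218 tall compact peaks (13.4%) and for 842 lower compact peaks (10.9%).

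Input reads, which the limit on level did not use, were about as dense over tall as over lower compact peaks. The ratio of input reads per kb between the sets was 0.928, 0.929 and 1.05 in the control inputs, 0.947, 0.962 and 1.09 at 30 min, and 1.001, 1.09 and 0.953 at 3 h 30 min. It was above 1 in 4 of 9 inputs, with a geometric mean of 0.992 (2-sided exact sign-flip permutation test over 9 inputs, p = 0.738, smallest possible p 0.00391). At 3 h 30 min against 30 min the input ratio was 1.01 ± 0.0673 against 0.9995 ± 0.0781 (SD, n = 3, 2-sided exact permutation test, p = 0.8). No member was at 0 in all inputs, and the pooled input count of a member ran from 36 to 545 with a median of 135. Most input lay in Peak_14364 at chr9:29526008-29528145 (545 reads), Peak_1741 at chr1:197981569-197983350 (424 reads) and Peak_14344 at chr1:226435223-226436976 (283 reads). Least input per kb lay in Peak_5994, Peak_13482 and Peak_15667, at 41.4 to 44.0 reads per kb. With both scaled to their library and the inputs pooled, the ChIP level of the median member was 54.6 times its input in control cells, 49.5 times at 30 min and 57.4 times at 3 h 30 min, against 28.9, 27.7 and 30.0 times in lower compact peaks. The pool rests mostly on input replicate 3 of control and of 30 min. These held 71168 and 90711 reads in members, against 2595 to 19274 in the other inputs. Their shares of aligned reads in peaks were 2.95% and 3.55%, against 1.05% to 2.31% in the others, so the pooled values depend on them. Those 2 inputs and 3 h 30 min input replicate 2 also had the highest ratios between the sets.

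The counts behind each member were high. A member held 542 to 3329 reads in a ChIP library, and the median coefficient of variation between replicates was 1.33% in control cells, 1.94% at 30 min and 3.01% at 3 h 30 min. The median Poisson coefficient of variation of the counts was 2.64%, 2.51% and 2.58%. From only 3 libraries, pure Poisson counts would give an observed median somewhat below these values, so the gap at 30 min is small. In control cells and at 30 min, then, replicates of the median member differed by less than counting error. A chi-square statistic of the counts over members gave 0.318 to 0.373 per degree of freedom between control libraries and 0.397 to 0.577 at 30 min, where Poisson counts give about 1. At 3 h 30 min it was 0.726 and 0.452 for the pairs with replicate 2 and 1.43 between replicates 1 and 3. The control libraries held different numbers of reads outside peaks and were kept as separate samples. No member had a coefficient of variation over 10% in any condition. Among lower compact peaks 660 (8.57%), 990 (12.9%) and 1611 (20.9%) did at control, 30 min and 3 h 30 min. Their median Poisson coefficient of variation was also larger, at 4.06%, 3.78% and 3.99%. The limit on level chose peaks of high counts, so it bears on this difference. The largest spread at 3 h 30 min was in Peak_10762 at chr1:128720393-128722115, with 58.5, 65.4 and 70.1 RCPM. Peak_6764 and Peak_7840 followed at coefficients of variation of 8.35% and 8.21%.

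Since duplicates were removed, a position could give a single read on each strand, and a peak could not fill beyond that. Possible starts were taken as a single start per base of the peak's width on each strand. In the average member 40.3% to 48.0% of the possible starts were filled, depending on the library, and 60.5% to 69.4% in the fullest member. Reads that began outside a peak and overlapped it, if counted, would make these shares too high. In lower compact peaks the average was 18.8% to 24.1%. How far this lowers the height of tall peaks or the spread between replicates was not tested.

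The limit of 50 RCPM used no library after washout, although the peaks, and with them their widths and gaps, came from peaks merged over all treatments. A mean of 50 RCPM or more was kept by 1439 members (88.2%) at 30 min and by 1511 (92.6%) at 3 h 30 min, by 1385 at both times, and by 1249 in each of the 9 libraries. Of the lower compact peaks, 30 reached 50 RCPM at 30 min and 222 at 3 h 30 min. The lowest member mean was 44.2 RCPM at 30 min, in Peak_5176 (Cd99), and 41.9 RCPM at 3 h 30 min, in Peak_6782. The order of the members was largely kept between the times, with a Spearman's rho of 0.903 over the 1632 peaks, which share the libraries.

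As a set, tall compact peaks stood slightly lower at 30 min than later. Their mean level was 58.6, 58.3 and 58.2 RCPM in the control libraries, 55.9, 57.4 and 56.4 RCPM at 30 min and 58.1, 59.3 and 61.0 RCPM at 3 h 30 min. All 30 min libraries lay below all of the others. The difference between 30 min (56.6 ± 0.751 RCPM) and 3 h 30 min (59.5 ± 1.43 RCPM, SD, n = 3) gave p = 0.1 in a 2-sided exact permutation test, the smallest p that 3 against 3 libraries allow. Members took 16.1 ± 0.215% of reads in peaks at 30 min and 16.9 ± 0.408% at 3 h 30 min (p = 0.1, exact permutation test), after 16.6 ± 0.0621% in control cells.

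Relative to the lower compact peaks the members showed the same order. The ratio of mean RCPM was 2.14, 2.12 and 2.10 in control cells, 1.99, 2.06 and 2.00 at 30 min and 2.08, 2.12 and 2.21 at 3 h 30 min (30 min against 3 h 30 min, p = 0.1, exact permutation test). The lower compact peaks themselves had 28.1 ± 0.200 RCPM at 30 min and 27.8 ± 0.211 RCPM at 3 h 30 min (p = 0.3, exact permutation test). Against the 979 other tall peaks the ratio of the members was 0.985 ± 0.000532 at 30 min and 0.994 ± 0.00239 at 3 h 30 min (p = 0.1, exact permutation test), a difference of less than 0.01.

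The share of aligned reads in peaks and the sequencing depth both moved with this result. The share was 75.1%, 79.1% and 75.4% at 30 min and 79.1%, 87.2% and 88.5% at 3 h 30 min, and reads in peaks were 17160987, 15350058 and 15980928 at 30 min and 15499672, 14430202 and 14235305 at 3 h 30 min. In members, 45.7 ± 2.04% of the possible read starts were filled at 30 min and 43.7 ± 1.16% at 3 h 30 min (SD, n = 3). In both share and depth, 30 min replicate 2 and 3 h 30 min replicate 1 were alike. These libraries were also the closest in the level of the members, 57.4 and 58.1 RCPM, and in the ratio to lower compact peaks, 2.06 and 2.08. The median log2 ratio of a member between them was 0.01, and 884 members (54.2%) were higher in the later library. For the other 8 pairs of a 3 h 30 min with a 30 min library it was 0.04 to 0.13, in pairs that share libraries. The largest, 0.13, was between 3 h 30 min replicate 3 and 30 min replicate 3, whose shares of aligned reads in peaks differed by 13.1 percentage points. With 30 min replicate 1 instead, that difference was 13.3 points and the ratio was also 0.13. Not every pair kept this order. Between replicate 2 of both times the shares differed by 8.09 points and the ratio was 0.036. It was 0.046 and 0.047 for 3 h 30 min replicate 1 with 30 min replicates 1 and 3, whose shares differed by 3.97 and 3.75 points.

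**Figure D2:**
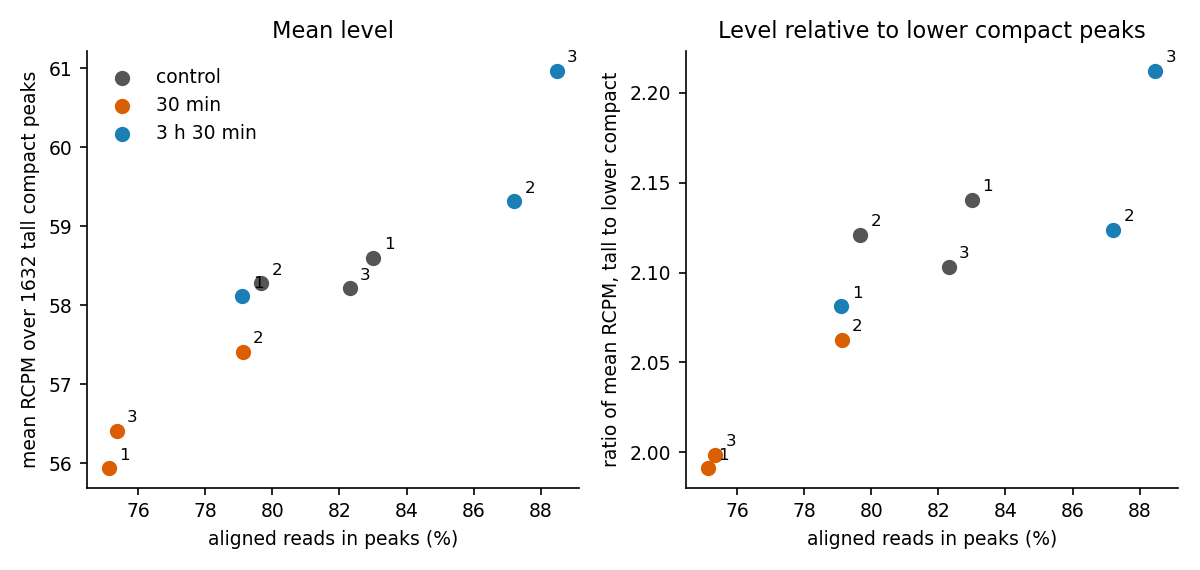
Mean RCPM of the 1632 tall compact peaks (left) and its ratio to the mean RCPM of lower compact peaks (right) against the share of aligned reads in peaks (%), 1 point per ChIP library with its replicate number, coloured by condition. 30 min replicate 2 and 3 h 30 min replicate 1, both at 79.1%, lie close together, at 57.4 and 58.1 RCPM on the left.

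Peak by peak, 743 of 1632 members (45.5%) were up-regulated between 30 min and 3 h 30 min and 68 (4.17%) were down-regulated, by edgeR's quasi-likelihood test at a Benjamini-Hochberg adjusted p under 0.05 over all peaks. Over all 16364 peaks, all of which passed the filter on low counts, 17.9% were called higher and 23.3% lower. The changes were small. The median log2 change of the members was 0.07, that of all peaks was 0.00, and 90% of members lay between -0.07 and 0.16. The members called higher had a median log2 change of 0.11, those called lower of -0.11, and none passed 0.5 in either direction. The 3 libraries of 3 h 30 min lay all above those of 30 min for 775 members (47.5%, against 22.9% of all peaks) and all below for 96 (5.88%, against 26.6%). Among lower compact peaks 1045 (13.6%) were called higher and 1814 (23.6%) lower. Among the other tall peaks 411 (42.0%) were called higher and 91 (9.30%) lower.

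These counts changed when single libraries were left out and when the share of reads in peaks or the depth entered the model. Without 30 min replicate 1 the members called higher were 482, and without 3 h 30 min replicate 3 they were 424. The members called lower were 35 without 30 min replicate 1, 40 without 30 min replicate 2 and 36 without 3 h 30 min replicate 2. The share of all peaks called without these libraries is not given here. Whether the members or the whole fit changed therefore cannot be read from these counts. With the share of aligned reads in peaks added to the edgeR model as a covariate, 7 members were called higher and 7 lower (0.429% each), against 1.39% and 3.22% of all peaks, and the median log2 change of the members was 0.01. With the log2 number of reads in peaks as the covariate instead, 20 members were called higher and 12 lower, against 2.24% and 5.73% of all peaks, with a median of 0.03. Share and depth both differed between the times, so either covariate can also take up part of a difference between them, and their parts in the result cannot be told apart here. With 30 min replicate 2 and 3 h 30 min replicate 1 as the only treated libraries, and the controls for the spread, 12 members were called higher and 11 lower, against 2.38% and 6.50% of all peaks. In that fit the lone library of each time is taken to vary like the controls. At an unadjusted p under 0.05 the fit with the share as covariate gave 59 higher and 50 lower of 1632 members, against 885 and 1870 of all 16364 peaks. All 3 fits were added after the data were seen. Scaled to all aligned reads instead, the median log2 change was 0.16 over all peaks and 0.23 in the members. The members thus stood 0.07 above all peaks, as they did with TMM scaling. With all aligned reads, 1421 members were called higher and 1 lower, against 48.1% and 10.2% of all peaks. DESeq2 called 468 members higher and 32 lower, against 10.6% and 18.1%.

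**Figure D3:**
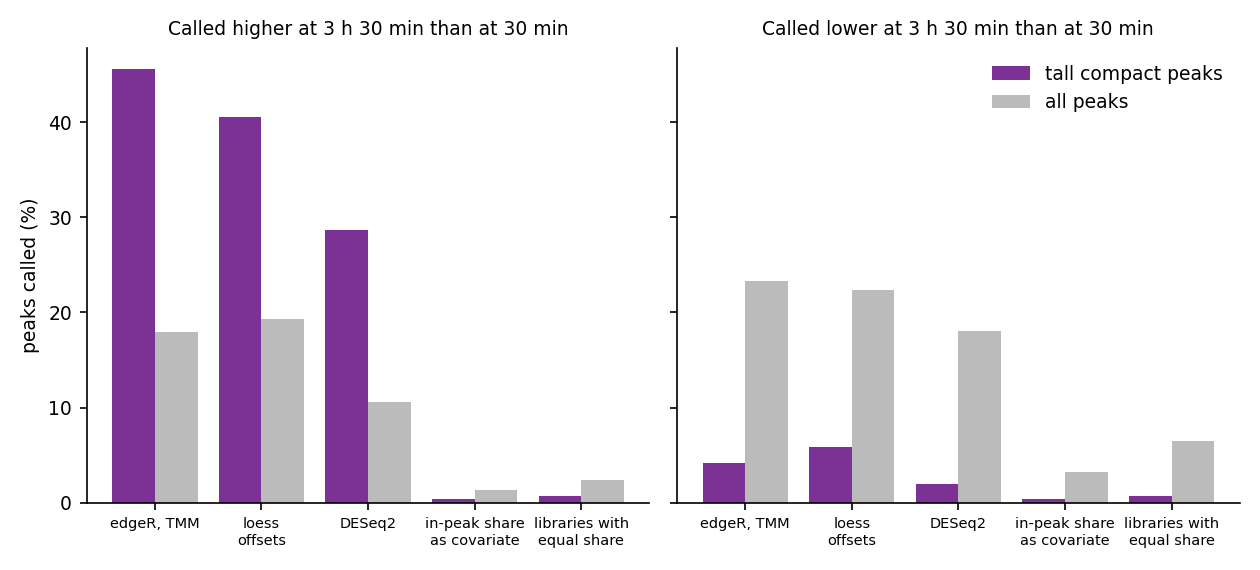
Share (%) of the 1632 tall compact peaks (purple) and of all 16364 peaks (grey) called higher (left) or lower (right) at the later time after washout, for 5 fits at an adjusted p under 0.05. Members were called higher more often than all peaks with TMM scaling (45.5% against 17.9%), loess offsets and DESeq2, but not with the share of aligned reads in peaks as covariate (0.429% against 1.39%) or between the libraries of equal share, which were also alike in depth.

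Within the compact peaks the difference followed the control level, which comes from other libraries than those compared. Between the times after washout, the log2 change had a median of -0.16 in peaks under 10 RCPM, 0.00 at 30 to under 40, 0.03 at 40 to under 50, 0.05 at 50 to under 55, 0.07 at 55 to under 60, 0.09 at 60 to under 70 and 0.10 at 70 or more. The share called higher by edgeR's quasi-likelihood test rose along the same bins from 2.77% under 10 RCPM to 24.1% just below the limit of 50, 32.6% just above it and 71.6% at 70 or more, where 115 of 116 peaks had a positive change. The share called lower went from 33.6% to 0% of those 116 peaks. The limit of 50 RCPM thus lay within a gradient and marked no step. With loess offsets, which remove a trend with abundance over all peaks, the change was 0.00 under 10 RCPM but still 0.04 to 0.08 in the bins of the members, and 662 members (40.6%) were called higher and 95 lower, against 19.3% and 22.4% of all peaks. By width and by gap, the median log2 change was 0.06 to 0.08 in every bin of the members.

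**Figure D4:**
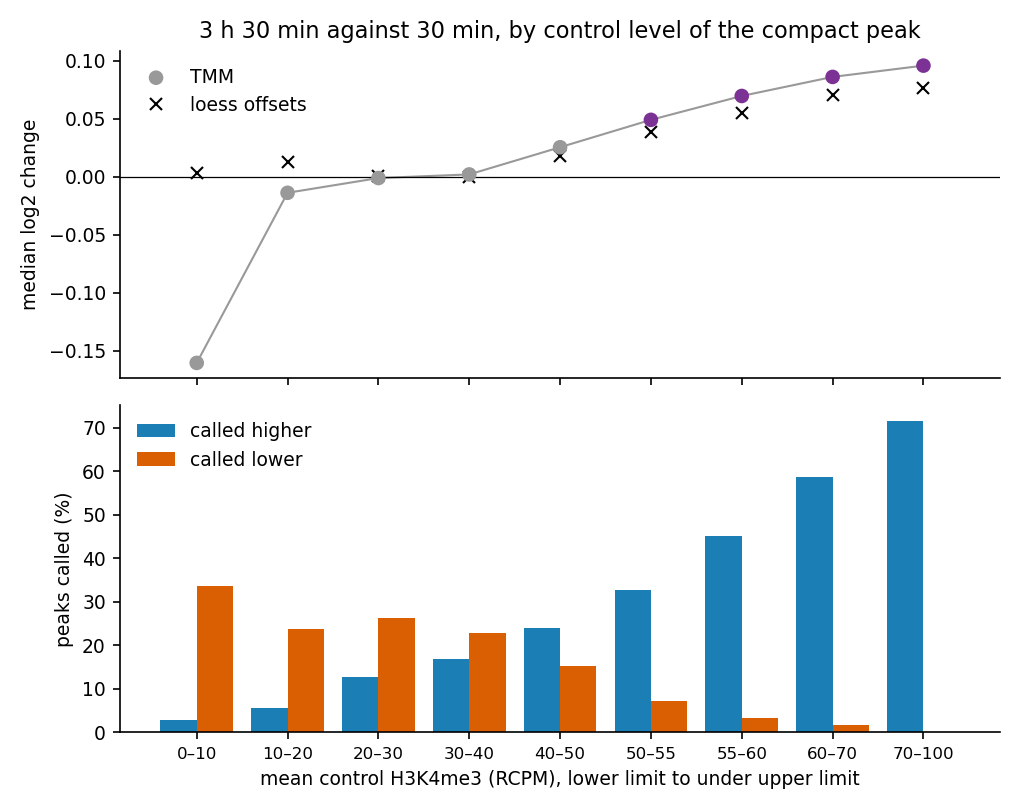
Median of the log2 change after washout, 3 h 30 min against 30 min (top, circles for TMM scaling with members in purple, crosses for loess offsets) and share of peaks called higher or lower with TMM scaling (bottom, %), for the 9333 compact peaks in bins of mean control RCPM. The median runs from -0.16 in the lowest to 0.10 in the highest bin with TMM scaling.

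Of the members called higher with TMM scaling, the 5 with the largest rise were Peak_13152, Peak_1289, Peak_8148, Peak_6649 (Ptges3) and Peak_3897. Peak_13152 at chr6:93739937-93741688 had 52.0, 51.7 and 54.2 RCPM in control cells, 52.5, 53.2 and 53.5 RCPM at 30 min and 66.0, 63.8 and 66.5 RCPM at 3 h 30 min. Its libraries at 3 h 30 min thus stood apart from all 6 others, and its log2 change from 30 min was 0.30 (SE 0.03, adjusted p = 1.72e-05, edgeR's quasi-likelihood test). With the share of aligned reads in peaks as covariate the change was 0.29 (SE 0.04, adjusted p = 0.00129, edgeR). Peak_8148 at chr10:74678827-74680248 had the same shape, with 51.2, 50.9 and 53.1 RCPM at 30 min and 58.3, 63.2 and 63.3 RCPM at 3 h 30 min, after 50.8, 52.5 and 51.1 RCPM in control cells. Its log2 change was 0.24 (SE 0.03, adjusted p = 0.000211, edgeR), and 0.17 with the covariate (adjusted p = 0.0467).

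Ptges3 (Peak_6649) had another course. Its levels were 58.9, 59.9 and 59.4 RCPM in control cells, 50.7, 52.9 and 52.4 RCPM at 30 min and 59.5, 61.4 and 63.2 RCPM at 3 h 30 min, so that the 30 min libraries lay below all others. Its log2 change between these times was 0.23 (SE 0.03, adjusted p = 6.85e-05, edgeR) and 0.17 with the covariate (adjusted p = 0.0105). Cd99 (Peak_5176) had 50.5, 50.5 and 50.0 RCPM in control cells, 43.3, 45.5 and 43.9 RCPM at 30 min and 49.6, 52.8 and 53.7 RCPM at 3 h 30 min. Its change of 0.23 (SE 0.03, adjusted p = 0.000263, edgeR) fell to 0.13 with the covariate (adjusted p = 0.128). The study chose both genes on these libraries for their level at 30 min, so their course is not independent evidence of it. Peak_3897 at chr16:3051006-3052572 also dipped, with 51.5, 52.1 and 49.5 RCPM at 30 min against 56.4 to 57.8 RCPM in control cells and 58.4 to 62.8 RCPM at 3 h 30 min. Its rise and that of Peak_1289 were no longer called with the covariate (adjusted p = 0.0540 and 0.161, edgeR).

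The members with the largest fall were Peak_6764, Peak_6782, Peak_4718, Peak_13605 and Peak_1260. Peak_6764 at chr7:30023241-30024989 had 59.9, 59.2 and 57.8 RCPM in control cells, 64.5, 62.3 and 58.7 RCPM at 30 min and 48.3, 44.1 and 40.9 RCPM at 3 h 30 min. This was the largest change of any member in either direction, -0.48 on the log2 scale (SE 0.05, adjusted p = 3.86e-05, edgeR) and -0.36 with the covariate (adjusted p = 0.00663). Peak_6782 at chr1:214215598-214217340 had 51.4, 50.6 and 49.8 RCPM at 30 min, close to its 50.9 to 51.1 RCPM in control cells, and 43.2, 40.3 and 42.4 RCPM at 3 h 30 min. Its log2 change was -0.28 (SE 0.03, adjusted p = 5.33e-05, edgeR). Peak_4718 at chr2:115362748-115363732, only 985 bp wide, had 51.3, 52.1 and 50.6 RCPM at 30 min and 43.5, 41.9 and 43.2 RCPM at 3 h 30 min, a log2 change of -0.27 (SE 0.04, adjusted p = 0.000181, edgeR). Peak_13605 and Peak_1260 had log2 changes of -0.22 and -0.20 and were no longer called with the covariate (adjusted p = 0.114 and 0.276, edgeR).

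Called in the same direction by the fit with TMM scaling, by that with the covariate and by that of the libraries of equal share were 12 members, 5 higher and 7 lower at 3 h 30 min. They were singled out after the values were seen. The share of all peaks called in all 3 fits is not given here. In the fit with the covariate, 0.429% of members were called each way, against 1.39% and 3.22% of all peaks. The fits share libraries, so a call in all 3 is not independent support. Besides the peaks given above, the higher ones were Peak_9270 at chr14:83886947-83888783 and Peak_12112 at chr4:100658840-100661024. Peak_9270, the tallest of the 12, had 69.4 RCPM in each control library, 62.2, 63.3 and 63.2 RCPM at 30 min and 70.6, 72.8 and 76.2 RCPM at 3 h 30 min. Peak_12112 had 53.3, 53.1 and 54.2 RCPM at 30 min and 59.6, 61.3 and 63.8 RCPM at 3 h 30 min, with 55.1 to 55.5 RCPM in control cells. The lower ones were, with Peak_6764, Peak_6782 and Peak_4718, Peak_12822 at chr5:154362026-154363784, Peak_7135 at chr8:46535923-46537541, Peak_4550 at chr19:39645442-39646840 and Peak_1380 at chr4:22080804-22082757. Peak_12822 went from 52.6, 53.3 and 51.4 RCPM at 30 min to 47.2, 45.3 and 45.7 RCPM at 3 h 30 min. Peak_7135, Peak_4550 and Peak_1380 had log2 changes of -0.18, -0.17 and -0.15 with TMM scaling and of -0.19, -0.22 and -0.23 with the covariate (adjusted p = 0.0195, 0.0170 and 0.00828, edgeR). In all 7 lower peaks the 3 h 30 min libraries lay below every control and every 30 min library.

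Comparisons with control cells are given as a description only, because the control level chose the peaks and any extreme value of a control library moves them. At 30 min the median log2 difference from control was -0.05, 181 of 1632 members were above 0, and 0 members were called higher and 11 lower by edgeR's quasi-likelihood test, where 0.532% and 0.281% of all peaks were called. The count of 11 was 367 in a fit of the compared conditions alone and 0 to 4 with any 1 of the 6 libraries left out. At an unadjusted p under 0.05 the counts were 12 and 538, against 1881 and 1623 of all 16364 peaks, and DESeq2 called 0 members higher and 10 lower. The 30 min libraries lay all below the controls for 856 members (52.5%, against 17.5% of all peaks) and all above for 27 (1.65%, against 18.3%). At 3 h 30 min the median was 0.02, with 189 members called higher (11.6%, against 13.7% of all peaks) and 145 lower (8.88%, against 17.8%). Without 3 h 30 min replicate 3 that median was -0.0084 and 64 members were called higher, and without 3 h 30 min replicate 1 it was 0.04 and 415 were. Without control replicate 1, 2 or 3 or 3 h 30 min replicate 2 the members called higher were 78, 87, 122 and 106. Those called lower were 60 without control replicate 1, 90 without control replicate 2 and 52 without 3 h 30 min replicate 2. For the fits with a library left out, the share of all peaks called is not given here. Of the 743 members up-regulated after 30 min, 567 were not called against control. Of the 68 called lower, 62 were also called lower than control. Over all members, most were likewise not called against control. The matching counts over all peaks are not given here, so these counts do not set the members apart. These comparisons share libraries. Members picked by 1 control library at a time, and set against the other 2, had a median difference of -0.05 at 30 min and 0.02 at 3 h 30 min whichever library was used.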

How the data were processed

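H3K4me3 ChIP-seq and genomic input libraries, 9 of each, were analysed. Per the study's methods, trimmed single reads were mapped to Rnor_6.0, reads with several positions and duplicates were dropped, and peaks were called and merged over treatments. The authors deposited raw counts of reads per merged peak. Peak starts and ends are printed as the deposited counts table gives them. Condition and replicate were taken from the sample labels. From these counts RCPM was computed with reads in peaks as library size, and reads outside peaks entered only the share of aligned reads. The tall compact peaks, the comparisons and the named peaks were chosen with earlier results of these data known. No genome or annotation of Rnor_6.0 was used here, so peak sequences, promoter overlap and gene lists were not analysed.

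The quasi-likelihood test of edgeR 4.0.16 (R 4.3.3) was run on all 9 ChIP libraries with TMM scaling, a term for condition, edgeR's low-count filter and Benjamini-Hochberg adjustment over all 16364 peaks, at 0.05. Where an adjusted p is printed it is from edgeR. Values with 1 number per library were compared by exact permutation. On simulated counts with 100 peaks changed by 0.25 and 100 by 0.5 (log2), 71 and 92 were recovered, with 10 false calls over 16364 peaks. The simulated counts had 1 spread for all peaks, larger than Poisson, and the same peak proportions in every library apart from the changed peaks. They held no effect of in-peak share, depth or filled read starts, so the false calls do not measure errors from these.

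Named were the 5 tallest members, the 3 just inside and 3 just outside the limit, the 5 largest rises and falls among called members with libraries apart, the 3 of largest spread at 3 h 30 min, the 3 of most and least input per kb, and the narrowest and widest. The matched genes and the 12 peaks called in 3 fits were added. Alternatives were other scalings, DESeq2 1.42.0, loess offsets (span 0.3), low-count filters, an adjusted p under 0.01, fits of the compared conditions, a replicate block, each library left out and limits of 40 and 60 RCPM. The in-peak share or the log2 reads in peaks as covariate, the libraries of equal share and members picked by single control libraries were added after the data were seen. Other calculations used Python 3.11.15, numpy 2.4.6, pandas 2.3.3 and scipy 1.17.1, and matplotlib 3.10.9 drew the figures.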

Additional observations from a re-analysis of the deposited data

How the results depend on the processing

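With 3 libraries per condition, the exact permutation test used for values with 1 number per library cannot give a p under 0.1, and duplicate removal limits the reads of the fullest peaks. Without a gene annotation of the peaks' build, members could not be grouped by gene. Members called higher, 45.5% with TMM scaling, were 87.1% with all aligned reads as library size, 28.7% with DESeq2, 22.4% at an adjusted p under 0.01, 0.429% with the share of aligned reads in peaks as a covariate, 0.735% between the libraries of equal share, a fit that also left out 4 of 6 treated libraries and kept a pair of like depth, 1.23% with the log2 reads in peaks as a covariate, and 26.0% (without 3 h 30 min replicate 3) to 57.0% (without 3 h 30 min replicate 1) with 1 library left out. Members called lower, 4.17%, were 0.0613%, 1.96%, 2.14%, 0.429%, 0.674% and 0.735% under the same settings, 10.003% and 1.26% with limits of 40 and 60 RCPM, and 2.14% to 4.96% with 1 library left out. The median log2 change, 0.07, was 0.23 with all aligned reads, 0.012 with the covariate, 0.0124 between the libraries of equal share, 0.026 with the log2 reads in peaks and 0.05 to 0.09 with 1 library left out.

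Against control at 30 min, members called higher were 0% and became 0.0613% without TMM, 0.184% with loess offsets, 0.306% in a fit of the compared conditions, 0.0613% with the replicate block and 0.0290% with a limit of 40 RCPM, and stayed at 0% with any library left out. Those called lower, 0.674%, were 0.123% with all aligned reads, 0.368% with loess offsets, 22.5% in a fit of the compared conditions (367 members), 1.10% with the replicate block, 0.0613% at an adjusted p under 0.01, 0.406% and 1.08% with limits of 40 and 60 RCPM, and 0% to 0.245% with any 1 of the 6 libraries left out. For members picked by control replicate 1, 2 or 3 alone, fitted without it, they were 0.0608%, 0% and 0.0624%. The median, -0.05, was -0.14 with all aligned reads, -0.027 with loess offsets, -0.036 with a limit of 40 RCPM and -0.06 to -0.04 with 1 library left out. At 3 h 30 min against control, members called higher, 11.6%, were 18.9% with loess offsets, 5.02% with DESeq2, 3.43% at an adjusted p under 0.01, 4.62%, 5.83% and 8.23% when picked by control replicate 1, 2 or 3 alone, and 3.92% to 25.4% with 1 library left out, again without 3 h 30 min replicate 3 and without its replicate 1. Those called lower, 8.88%, were 0.429% with all aligned reads, 3.002% with DESeq2, 3.06% at an adjusted p under 0.01, 5.42% with a limit of 60 RCPM, 3.71%, 5.28% and 5.68% when picked by control replicate 1, 2 or 3 alone, and 3.19% to 9.68% with 1 library left out. The median, 0.02, was 0.086 with all aligned reads and -0.0084 without 3 h 30 min replicate 3, the lowest of -0.0084 to 0.0369 with 1 library left out. The cause of these differences was not tested.

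The input ratio between tall and lower compact peaks, 0.992, was 1.0002 against all other peaks and 0.981 to 1.0005 with 1 input left out, and its difference between the times, 0.0136, was -0.0226 to 0.0584. Same-numbered libraries had correlations of -0.213 to 0.353 of their deviations from the condition means, so the numbers were not taken to pair the samples. With the replicate number as a block, 754 members were called higher and 70 lower at 3 h 30 min against 30 min. The differences between these times in the share of reads in peaks (0.804 percentage points) and in the ratio to lower compact peaks (0.122) kept their direction throughout, with 0.591 to 0.997 and 0.0851 to 0.151 when 1 library was left out. Of the members, only Peak_6764 was called lower with all aligned reads as library size. None of the other peaks named for a fall was, and this included Peak_12822, Peak_7135, Peak_4550 and Peak_1380.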
